A study of Homo sapiens with 12 samples.

Results

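Described here are 10 genes for AP-1, MYC and other early-response transcription factors, most of which cells switch on soon after a stimulus: *JUN*, *JUNB*, *JUND*, *FOS*, *FOSL1*, *FOSL2*, *EGR1*, *MYC*, *KLF6* and *KLF10*. They were taken from the deposited count table by symbol, as 10 of its 57353 rows. Of the 10, 9 passed the filter on low counts and were tested among 14955 genes, whereas *FOS* did not pass. The cells were HepG2, a liver cancer line whose genotype the labels give as WT. For 12 h they were given sorafenib at 10 µM, a drug for liver cancer that inhibits several kinases, or DMSO (dimethyl sulfoxide), its vehicle. Every culture also received cycloheximide, which halts ribosomes on mRNA, shortly before lysis. Each lysate was run on a sucrose gradient, and RNA was sequenced from a light pool, labelled low polysome, and from a heavier polysome pool. This gave 4 groups of 3 libraries: vehicle light, vehicle polysome, sorafenib light and sorafenib polysome, from 6 cultures in all.

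AP-1 is a pair of bZIP proteins, either a JUN protein with a FOS protein or a pair of JUN proteins, which binds short palindromic DNA elements. *FOS*, *JUN*, *JUNB*, *EGR1* and *MYC* are classic immediate early genes, whose transcription needs no new protein synthesis and whose mRNAs are short-lived, whereas *FOSL1* and *FOSL2* are induced later and *JUND* is largely constitutive. In liver cells JUN is known for roles in proliferation, survival and stress signalling through the JNK kinases, while MYC pairs with MAX to drive growth and ribosome production, and KLF6 and KLF10 are zinc-finger factors that bind GC-rich elements.

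Total counts ran from 4769383 to 13336689 per library in the vehicle and sorafenib polysome groups and the vehicle light group, and from 511065 to 4989312 in the sorafenib light group. After thinning to the smallest library's total, sorafenib light libraries 2 and 1 held 25638 and 16807 detected genes, against 13301 to 14555 in the other 10. Replicate libraries correlated at 0.80 to 0.93 in the sorafenib light group and at 0.95 to 0.99 in the other groups (Pearson's r of log2 CPM over genes). All 13 hepatocyte-like markers checked, *ALB* and *HNF4A* among them, had counts in every library. Their summed level was 10700 to 21600 CPM in the vehicle libraries and 28300 to 47100 CPM in the sorafenib libraries. By the edgeR test described below, 8 of the 13 were higher after sorafenib and 2 lower in the polysome pool. In the light pool 8 were higher and 1 lower. Of all tested genes 20.9% were higher and 28.8% lower in the polysome pool, and 11.7% and 17.7% in the light pool. The 10 markers of leukocytes, endothelium and fibroblasts summed to 2.79 to 4.87 CPM outside the sorafenib light group and to 6.54 to 54.2 CPM within it, with *CD3E* at 0 in 9 libraries. The part of these differences in the results below was not tested.

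Levels are given as CPM, a gene's counts after each library was brought to the same TMM-scaled size over the tested genes. They are not scaled to gene length, so they are compared between libraries and not between genes. Changes are therefore relative to other transcripts. They are given as log2 fold changes with their standard error (SE) from edgeR's quasi-likelihood test, fitted to 3 libraries per group, with Benjamini-Hochberg adjustment over all 14955 genes and a threshold of 0.05. A pool holds the RNA of whole cultures, so a change in the number of cells that express a gene and a change in RNA per cell cannot be told apart. No unfractionated RNA was analysed here, so a higher polysome level can come with more mRNA, with more of it on polysomes, or both, and these cannot be told apart.

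The RefSeq promoter table (GRCh38.p14) held entries for 7 of the 10 genes. The sequences of 4 are shown because *JUN* and *JUNB* rose in both pools while *JUND* and *EGR1* passed the test in neither. Each run covers the 220 bases before the annotated start, 5′ to 3′ on the gene's strand, and capitals mark a motif found by search. *JUN* lies at chr1:58784048-58784267 on the minus strand, *JUNB* at chr19:12791266-12791485 on the plus strand, *JUND* at chr19:18281623-18281842 on the minus strand, and *EGR1* at chr5:138465259-138465478 on the plus strand.
JUN: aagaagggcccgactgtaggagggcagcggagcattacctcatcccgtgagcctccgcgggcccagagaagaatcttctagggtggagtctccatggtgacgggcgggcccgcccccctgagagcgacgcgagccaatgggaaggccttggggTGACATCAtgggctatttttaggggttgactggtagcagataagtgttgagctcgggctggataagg
JUNB: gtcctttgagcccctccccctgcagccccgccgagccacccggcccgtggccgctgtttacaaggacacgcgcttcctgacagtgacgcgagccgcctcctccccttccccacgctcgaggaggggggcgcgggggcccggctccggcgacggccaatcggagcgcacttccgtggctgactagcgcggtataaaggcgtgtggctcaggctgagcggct
JUND: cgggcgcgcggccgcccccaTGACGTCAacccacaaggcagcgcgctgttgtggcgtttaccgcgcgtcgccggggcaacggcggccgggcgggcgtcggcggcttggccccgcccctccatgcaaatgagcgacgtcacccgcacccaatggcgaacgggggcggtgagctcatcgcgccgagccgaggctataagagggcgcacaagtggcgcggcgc
EGR1: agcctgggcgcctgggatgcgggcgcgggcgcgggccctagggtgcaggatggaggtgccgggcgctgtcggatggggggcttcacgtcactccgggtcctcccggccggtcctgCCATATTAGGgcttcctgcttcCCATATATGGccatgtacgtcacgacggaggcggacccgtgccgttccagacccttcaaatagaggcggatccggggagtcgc
The 250 bases before each start were searched on both strands for 5 motifs: the AP-1 element TGANTCA, the cyclic AMP response element TGACGTCA, the JUN/ATF element TGACATCA, the MYC/MAX E-box CACGTG and the CArG box that serum response factor binds. The *JUN* promoter held TGACATCA at -67, counted from the start. *JUND* held TGACGTCA at -200, *KLF6* held TGACATCA at -172 and CACGTG at -97, and *EGR1* held CArG boxes at -105 and -83. None of these matches shared bases with another. No letters of the 5 motifs were found in the windows of *JUNB*, *FOS* and *FOSL2*. Among 35116 promoters of the same length, 6.57% held TGANTCA, 1.65% TGACGTCA, 2.37% TGACATCA, 6.34% CACGTG and 1.16% a CArG box. The matches describe the letters only; no binding was measured here.

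In the polysome pool, sorafenib was followed by higher *JUN*, *JUNB*, *KLF10*, *MYC* and *FOSL2* and lower *FOSL1*, while *JUND*, *EGR1* and *KLF6* did not pass the test. Of the 9 tested genes, 5 rose and 1 fell, against 20.9% of all tested genes called higher and 28.8% called lower. Their median log2 fold change was 1.15, against -0.26 over all tested genes. In the light pool 2 of the 9 rose, *JUN* and *JUNB*, and none fell by the edgeR test, where 1 had an unadjusted p under 0.05 in that direction (*FOSL1*), or by DESeq2. There 11.7% of all genes were called higher and 17.7% lower. The median of the 9 was 0.11 in the light pool, against -0.12 over all genes.

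**Figure D1:**
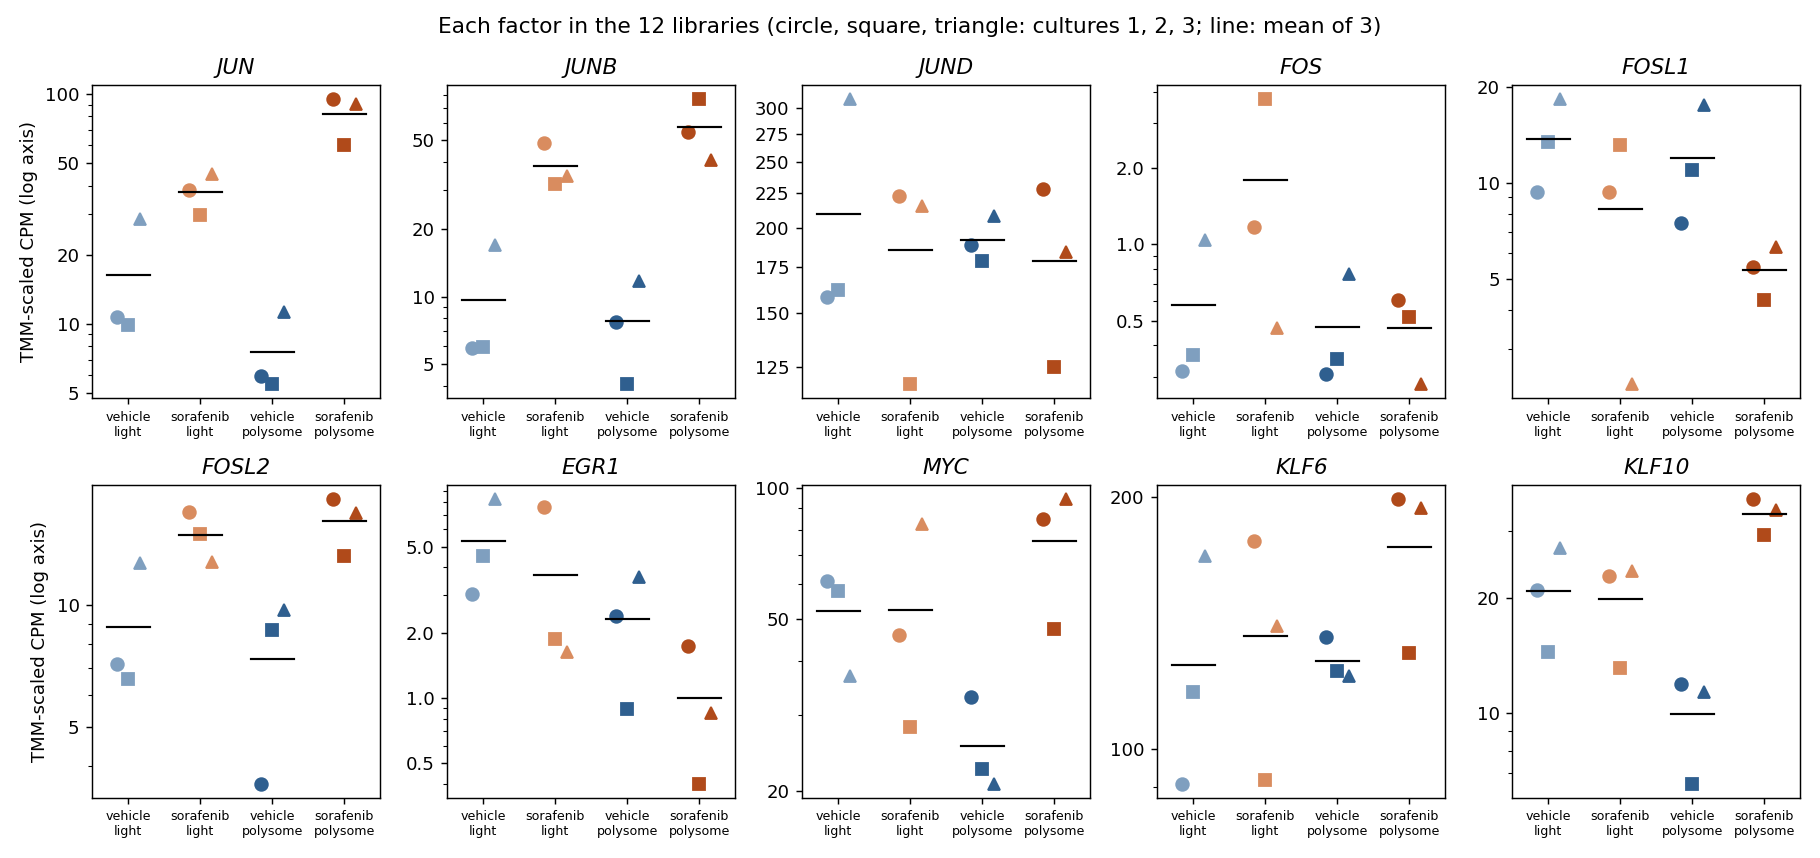
TMM-scaled CPM (log axes, a scale of its own in each panel) of the 10 genes in 12 libraries, grouped by treatment and pool, with points for cultures 1 to 3 and a line at the group mean. The sorafenib polysome libraries lie above all vehicle polysome libraries for *JUN*, *JUNB*, *FOSL2*, *MYC* and *KLF10*, and below them for *FOSL1*. The share of all genes that separate without overlap is not given here. By the edgeR test 20.9% of all tested genes were called higher in this comparison and 28.8% lower.

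*JUN* encodes c-Jun, the strongest transactivator of the JUN family and the substrate that gave JNK its name. It stood at 5.93, 5.49 and 11.3 CPM in the vehicle polysome libraries and at 95.1, 60.0 and 90.8 CPM in the sorafenib polysome libraries. The groups did not overlap, and the lowest sorafenib library was well above the highest vehicle one. The log2 fold change was 3.41 ± 0.38 (SE), or 10.6-fold, with an edgeR adjusted p of 2.11e-06, and it ranked 37 from the top among all 14955 genes. *JUN* in the light pool was at 10.7, 9.87 and 28.6 CPM with vehicle and 38.2, 29.9 and 44.8 CPM with sorafenib. These groups did not overlap either, although vehicle library 3 came close to sorafenib library 2, which rests on 16 counts. The light rise was 1.28 ± 0.38 (edgeR adjusted p = 0.0157), or 2.42-fold. It was not called after thinning to the smallest total (0.83, adjusted p = 0.213), or without vehicle light library 1 (adjusted p = 0.0594), vehicle light library 2 (0.0639) or sorafenib light library 3 (0.0615). Without vehicle light library 3 it was 1.96. By group mean the order was sorafenib polysome, sorafenib light, vehicle light and vehicle polysome, and only the last pair overlapped.

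*JUNB* encodes a JUN protein that activates less strongly and can oppose c-Jun. Its vehicle polysome levels were 7.70, 4.08 and 11.7 CPM and its sorafenib polysome levels 54.4, 76.4 and 40.8 CPM. Every sorafenib library was above every vehicle library. The polysome change was 2.83 ± 0.39 (edgeR adjusted p = 1.56e-05), or 7.12-fold. Light levels of *JUNB* stood at 5.89, 5.97 and 17.0 CPM with vehicle and at 48.7, 31.8 and 34.6 CPM with sorafenib, again without overlap. The light change was 2.05 ± 0.41 (edgeR adjusted p = 0.00124), or 4.15-fold, and 2.74 without vehicle light library 3. The levels of the light and polysome pools overlapped within each treatment, so *JUNB* was separated by drug and not by pool.

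*JUND* encodes the family member that is broadly expressed in resting cells. Its polysome levels were 189, 179 and 208 CPM with vehicle and 228, 125 and 184 CPM with sorafenib. Its light levels were 158, 162 and 309 CPM with vehicle and 223, 118 and 215 CPM with sorafenib. All 4 groups overlapped. The polysome change was -0.11 ± 0.30 (edgeR adjusted p = 0.785), with a 95% interval of -0.73 to 0.51, and the light change was -0.15 ± 0.30 (adjusted p = 0.731). The sign of either change depended on the scaling, so no direction is given.

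The family's counts therefore shifted towards *JUN* and *JUNB*. *JUN* made up 2.92%, 2.91% and 4.89% of the *JUN*, *JUNB* and *JUND* counts in the vehicle polysome libraries and 25.2%, 22.9% and 28.8% in the sorafenib polysome libraries. In the light pool the mean *JUN* share was 6.57% ± 1.34 (SD, n = 3) with vehicle and 14.7% ± 2.22 (SD, n = 3) with sorafenib. The *JUNB* share was 3.66% ± 1.45 against 18.9% ± 9.0 in the polysome pool and 3.84% ± 0.834 against 15.1% ± 3.05 in the light pool (SD, n = 3 each). In all 4 of these comparisons no sorafenib library fell within the vehicle range. The exact two-sided permutation p was 0.1 for each, the smallest that 3 against 3 allows, and 0.114 after adjustment over the 8 shares compared. These shares need no scaling between libraries, and they rest on 96 counts in sorafenib light library 2.

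**Figure D2:**
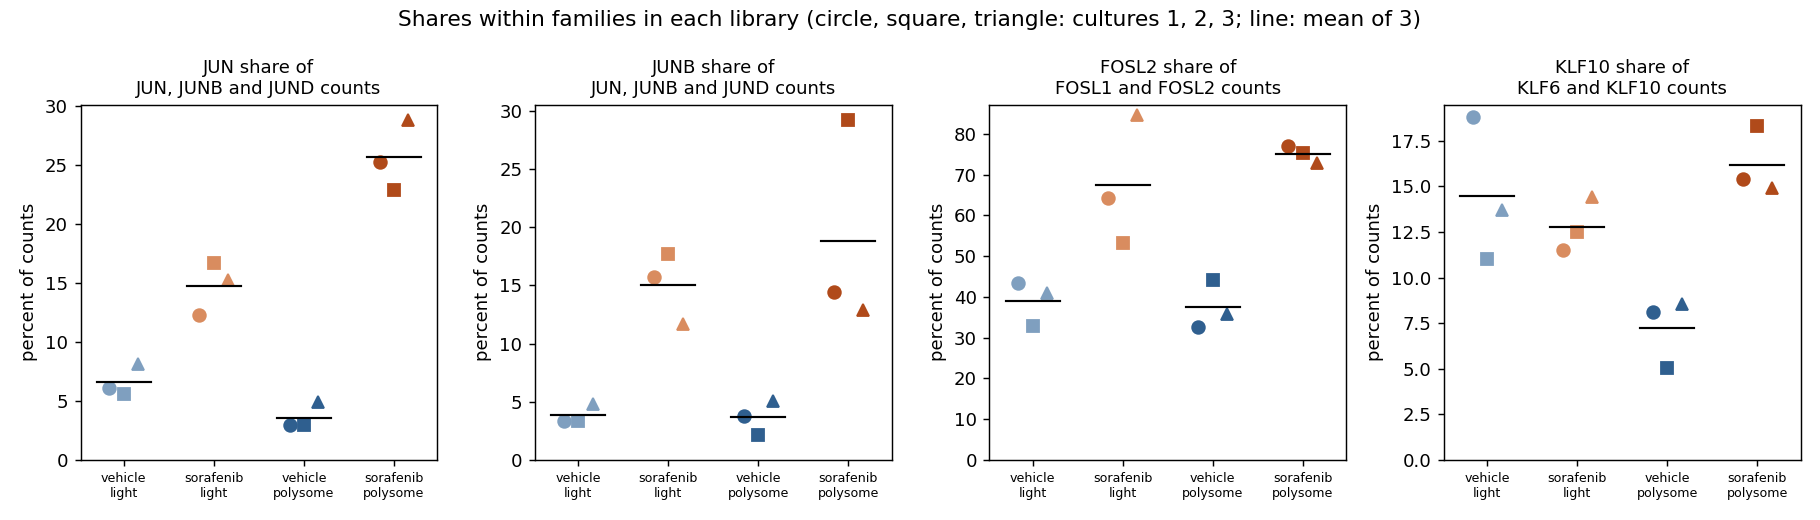
Percent of a family's counts held by *JUN*, *JUNB*, *FOSL2* and *KLF10* in each library (linear axes from 0), by treatment and pool, with points for cultures 1 to 3 and lines at group means. The *JUN* share is at most 8.08% in vehicle libraries and at least 12.3% in sorafenib libraries, while the *KLF10* share differs without overlap in the polysome pool and overlaps in the light pool.

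The FOS side of AP-1 moved in opposite directions. *FOSL2* encodes Fra-2, a FOS protein without the strong activation domain of c-Fos. It was at 3.62, 8.68 and 9.72 CPM in the vehicle polysome libraries and at 18.3, 13.2 and 16.9 CPM in the sorafenib polysome libraries, and the groups did not overlap. The change was 1.15 ± 0.32 (edgeR adjusted p = 0.00645), or 2.22-fold. Light levels were 7.16, 6.58 and 12.7 CPM with vehicle and 17.0, 15.0 and 12.8 CPM with sorafenib. Sorafenib library 3 lay only just above vehicle library 3 there, and the light change of 0.76 ± 0.37 did not pass the edgeR test (adjusted p = 0.133, 95% interval -0.02 to 1.54). It was called with library totals only (1.19, edgeR adjusted p = 0.0232) and without vehicle light library 3 (1.13, 0.0363).

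*FOSL1* encodes Fra-1, a FOS protein often raised by ERK signalling in tumour cells. Its vehicle polysome levels were 7.47, 11.0 and 17.5 CPM and its sorafenib polysome levels 5.43, 4.30 and 6.28 CPM. Each sorafenib library was lower than each vehicle library. The polysome change was -1.17 ± 0.38 (edgeR adjusted p = 0.0169), or 2.25-fold lower. This call was lost in 7 of 22 alternatives. The adjusted p was 0.0516 with TMM within each fraction and 0.125 without the low-count filter. It was 0.0529 without vehicle light library 1, 0.0671 without vehicle light library 2, 0.122 without vehicle polysome library 3, 0.0517 without sorafenib light library 1 and 0.0593 without sorafenib polysome library 2. Its light levels were 9.39, 13.4 and 18.3 CPM with vehicle and 9.39, 13.1 and 2.34 CPM with sorafenib. The light change of -1.14 ± 0.50 was not called (edgeR adjusted p = 0.0918), and sorafenib library 3 alone lay below the vehicle range. Without that library the change was -0.38 (edgeR adjusted p = 0.575), whereas it was called at -2.38 (0.0147) without both shallow sorafenib light libraries and at -1.26 (0.0274) without the low-count filter.

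*FOSL2* held 32.6% to 44.1% of the *FOSL1* and *FOSL2* counts in the vehicle polysome libraries and 72.9% to 77.1% in the sorafenib polysome libraries. For the light libraries the range was 32.9% to 43.3% with vehicle and 53.3% to 84.6% with sorafenib, where the shares rest on 45, 15 and 65 counts in libraries 1 to 3. The exact permutation p was 0.1 in either pool, again the smallest the design allows, and 0.114 adjusted over 8. *FOS* itself, the gene of c-Fos, had 2, 3 and 5 counts in the vehicle light libraries, 4, 2 and 9 in the vehicle polysome libraries, 2, 2 and 2 in the sorafenib light libraries and 8, 9 and 4 in the sorafenib polysome libraries. It was tested only without the low-count filter, over 45832 genes, where its polysome change was 0.34 ± 0.84 and its light change 0.94 ± 1.05 (edgeR adjusted p = 1 and 0.644). A change in *FOS* was not detectable at this depth.

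*EGR1* encodes a zinc-finger immediate early factor induced through serum response factor and its ERK-regulated partners. It had 31, 5 and 43 counts, or 2.39, 0.886 and 3.63 CPM, in the vehicle polysome libraries. In the sorafenib polysome libraries it had 23, 7 and 12 counts, or 1.74, 0.401 and 0.847 CPM. The ranges overlapped because vehicle library 2 was low. The polysome change was -1.30 ± 0.60 and missed the threshold (edgeR adjusted p = 0.0794, 95% interval -2.56 to -0.04). It was called without vehicle polysome library 2 (adjusted p = 0.0398) and without sorafenib polysome library 1 (0.0297). *EGR1* in the light pool was at 3.02, 4.51 and 8.30 CPM with vehicle and at 7.63, 1.87 and 1.63 CPM with sorafenib, where library 2 held 1 count. That change was -0.50 ± 0.68 (edgeR adjusted p = 0.61).

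*MYC* encodes the growth factor-responsive bHLH-leucine zipper protein c-Myc. It stood at 33.0, 22.5 and 20.8 CPM in the vehicle polysome libraries and at 85.1, 47.2 and 94.5 CPM in the sorafenib polysome libraries. The groups were apart, with sorafenib library 2 nearest to the vehicle range. The polysome change was 1.57 ± 0.33 (edgeR adjusted p = 0.000683), or 2.96-fold. Light levels of *MYC* were 61.1, 57.9 and 36.9 CPM with vehicle and 45.8, 28.1 and 82.9 CPM with sorafenib. The vehicle range lay within the sorafenib range. The light change was 0.11 ± 0.33 (edgeR adjusted p = 0.839), with a 95% interval of -0.59 to 0.80. By group mean *MYC* was highest in the sorafenib polysome group and lowest in the vehicle polysome group, and the vehicle polysome group was the only neighbour in that order without overlap.

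*KLF10* encodes a TGF-beta-inducible repressor. Its vehicle polysome levels were 11.9, 6.56 and 11.4 CPM and its sorafenib polysome levels 36.3, 29.2 and 34.0 CPM. The sorafenib polysome libraries were above all 9 other libraries and the vehicle polysome libraries below all 9 others. The polysome change was 1.71 ± 0.27 (edgeR adjusted p = 5.8e-05), or 3.27-fold. *KLF10* in the light pool was at 21.0, 14.5 and 27.0 CPM with vehicle and at 22.9, 13.1 and 23.6 CPM with sorafenib, a change of 0.04 ± 0.29 (edgeR adjusted p = 0.927, 95% interval -0.57 to 0.66).

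*KLF6* encodes a related activator described as a tumour suppressor in liver cancer. It was at 136, 124 and 122 CPM in the vehicle polysome libraries and at 199, 130 and 194 CPM in the sorafenib polysome libraries. Libraries 1 and 3 of the sorafenib group were above the vehicle range and library 2 was within it. The polysome change of 0.46 ± 0.27 was not called (edgeR adjusted p = 0.16). It passed in 9 of 23 alternatives, with adjusted p from 0.0133 to 0.435 over all of them. *KLF6* in the light pool ranged from 90.8 to 170 CPM with vehicle and from 91.6 to 177 CPM with sorafenib. *KLF10* made up 7.22% ± 1.9 of the *KLF6* and *KLF10* counts in the vehicle polysome group and 16.2% ± 1.83 in the sorafenib polysome group (SD, n = 3 each, exact permutation p = 0.1, adjusted 0.114). Its share in the light pool was 14.5% ± 3.95 and 12.8% ± 1.5 (SD, n = 3 each, exact permutation p = 0.7).

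**Figure D3:**
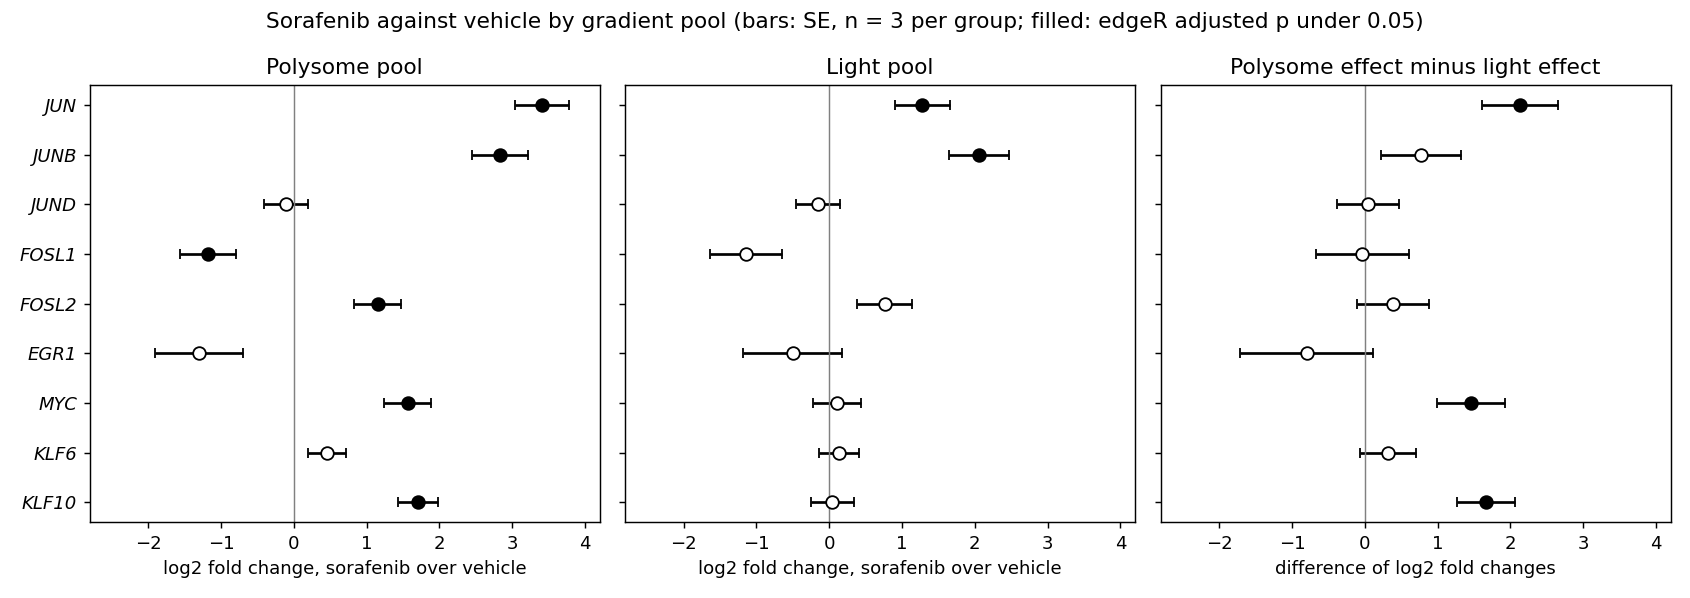
Log2 fold change of sorafenib over vehicle in the polysome pool and the light pool, and the difference between these effects, for the 9 tested genes, with bars for the SE (3 libraries per group) and filled points for an edgeR adjusted p under 0.05. *JUN* and *JUNB* are filled in both pools, whereas *MYC* and *KLF10* are filled in the polysome pool and in the difference.

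Whether the drug effect differed between pools was tested as an interaction. It was called higher in the polysome pool for 3 of the 9 genes, *JUN*, *KLF10* and *MYC*, and lower for none by the edgeR test, where none had an unadjusted p under 0.05 in that direction, or by DESeq2. Of all tested genes 12.8% were called higher and 10.7% lower, and the median was 0.39 over the 9 genes and 0.02 over all. The difference in log2 fold change was 2.13 ± 0.52 for *JUN* (edgeR adjusted p = 0.00567) and 1.66 ± 0.40 for *KLF10* (adjusted p = 0.00508). Both were called in 22 of 22 alternatives. The *KLF10* difference was 2.41 after thinning to the smallest total. For *MYC* the difference was 1.46 ± 0.46 (edgeR adjusted p = 0.0279), and it was lost in 7 of 22 alternatives. It was 1.00 (adjusted p = 0.183) without both shallow sorafenib light libraries and 1.19 (0.064) with library totals only. The adjusted p was 0.0633 without vehicle polysome library 2, 0.058 without vehicle polysome library 3, 0.0674 without sorafenib light library 1, 0.064 without sorafenib polysome library 1 and 0.0812 without sorafenib polysome library 3. It was 2.28 without sorafenib light library 3, where *MYC* was highest in its group. For *JUNB* the difference was 0.78 ± 0.55 (edgeR adjusted p = 0.329), with a 95% interval of -0.37 to 1.93. The other 5 genes had differences from -0.80 for *EGR1* to 0.39 for *FOSL2*, none of them called.

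The same contrast appears in the ratio of polysome to light CPM within each culture. For *JUN* the ratio was 0.556, 0.557 and 0.396 in the vehicle cultures and 2.49, 2.01 and 2.02 in the sorafenib cultures. For *KLF10* it was 0.568, 0.452 and 0.423 with vehicle and 1.59, 2.23 and 1.44 with sorafenib, and for *MYC* 0.541, 0.389 and 0.563 with vehicle and 1.86, 1.68 and 1.14 with sorafenib. These 3 genes were below 1 in all 3 vehicle cultures and above 1 in all 3 sorafenib cultures. The *JUNB* ratio was 1.31, 0.683 and 0.686 with vehicle and 1.12, 2.40 and 1.18 with sorafenib, and its ranges overlapped. The *JUND* ratio stayed between 0.676 and 1.19 in all 6 cultures. Because the value 1 depends on the scaling between pools, polysome minus light log2 CPM was also ranked among the 14955 genes of each culture. These log2 CPM were TMM-scaled, with a prior count of 2 that shrinks differences at low counts. Scaling between pools enters the ranks only through that prior. *JUN* lay at percentiles 21.1, 23.6 and 12.7 in the vehicle cultures and at 88.5, 76.0 and 87.1 in the sorafenib cultures. *KLF10* lay at 21.5, 16.3 and 13.8 with vehicle and at 71.8, 79.5 and 71.7 with sorafenib, and *MYC* at 19.5, 12.0 and 23.1 with vehicle and at 78.7, 69.0 and 56.9 with sorafenib. On this scale as well the vehicle and sorafenib cultures did not overlap for any of the 3. These 3 genes had been picked by the interaction test on the same libraries. The ratios and ranks therefore describe that result and are no independent support for it. The share of all genes without such overlap is not given here.

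**Figure D4:**
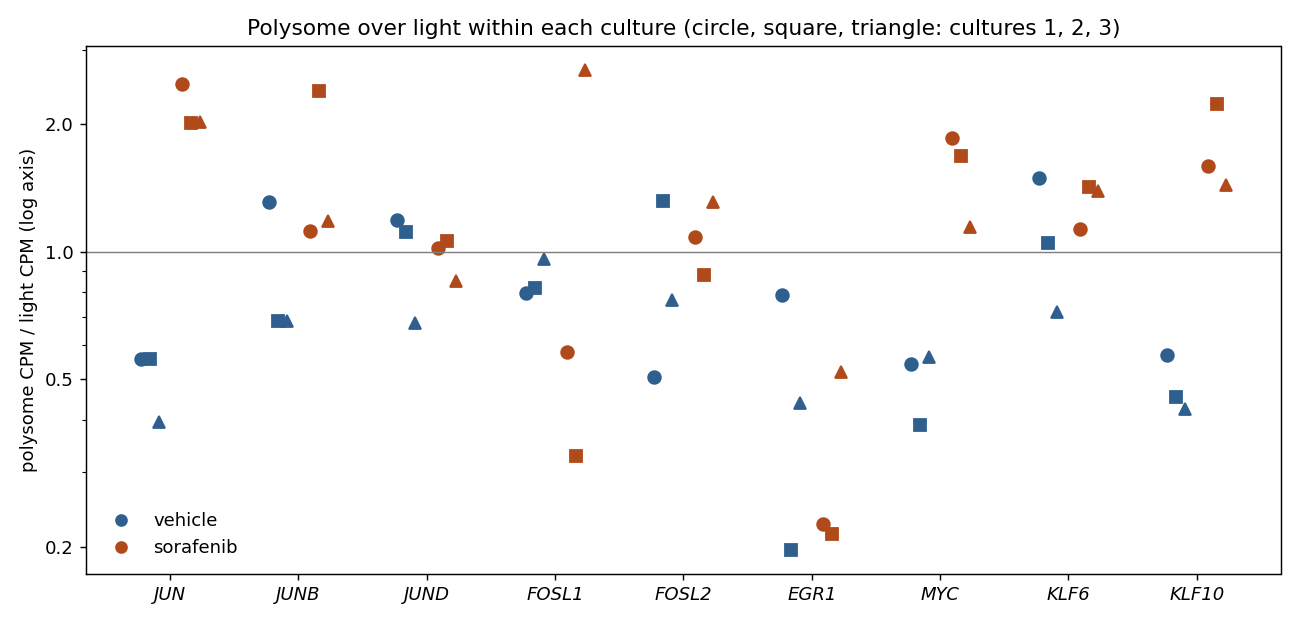
Polysome CPM over light CPM (log axis) of the 9 tested genes in each of 6 cultures, vehicle in blue and sorafenib in rust, with the line at a ratio of 1. *JUN*, *MYC* and *KLF10* lie between 0.389 and 0.568 in vehicle cultures and between 1.14 and 2.49 in sorafenib cultures.

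Between pools of the same treatment, *JUN* (-1.06 ± 0.37, edgeR adjusted p = 0.0305), *MYC* (-1.03 ± 0.32, 0.0182) and *KLF10* (-1.03 ± 0.27, 0.00637) were lower in the polysome than in the light pool of vehicle cells. No gene of the 9 was higher there by the edgeR test or by DESeq2, and none had an unadjusted p under 0.05 in that direction, against 18.3% of all genes called higher and 17.8% lower. In sorafenib cells *JUN* was higher in the polysome pool (1.07 ± 0.36, edgeR adjusted p = 0.0355) and none was called lower, although *EGR1* had an unadjusted p under 0.05 in that direction (-1.90 ± 0.73, edgeR adjusted p = 0.0639) and DESeq2 called it (adjusted p = 0.0274). *EGR1* was at -0.64 (edgeR adjusted p = 0.658) without sorafenib light library 1, at -0.62 (0.723) without both shallow libraries, and called at -2.51 (0.0289) without sorafenib polysome library 1 and at -2.26 (0.0296) without sorafenib light library 3. There 13.4% of all genes were called higher and 12.4% lower. These levels depend on how the pools are scaled: the median over all genes was -0.06 in vehicle cells and 0 in sorafenib cells. With TMM within each fraction it moved to 0.58 and 0.79, and with library totals to 0.82 and 0.60. In vehicle cells under these settings *JUN* was at -0.43 and -0.17, *MYC* at -0.37 and -0.14, and *KLF10* at -0.38 and -0.13, none of them called, and *JUN* in sorafenib cells was at 1.86 and 1.67. Leaving out single libraries also ended calls in vehicle cells. The *JUN* call was also lost with only the compared libraries in the fit (-1.07, edgeR adjusted p = 0.057). It was lost without vehicle light library 3 (-0.41, adjusted p = 0.396), vehicle polysome library 1 (0.122) or vehicle polysome library 2 (0.122). The *MYC* call was lost without vehicle light library 1 (0.105) or 2 (0.0996) or vehicle polysome library 2 (0.0753) or 3 (0.0787), and the *KLF10* call without vehicle light library 3 (0.0538). In sorafenib cells the *JUN* call was lost without sorafenib light library 1 (0.0608), sorafenib polysome library 1 (0.0826) or 3 (0.0768), without both shallow libraries (0.218), with the stricter low-count filter (0.0637) and after thinning (0.143). With the culture as a replicate block, *KLF10* was called higher (0.70, adjusted p = 0.0452) and *EGR1* lower (-1.67, adjusted p = 0.046) in the polysome pool of sorafenib cells, and *EGR1* lower in that of vehicle cells (-1.18, adjusted p = 0.0487).

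Partners, relatives and regulators of these factors were counted in lists, to be read against the shares of all tested genes called higher and lower. These were 20.9% and 28.8% in the polysome pool, 11.7% and 17.7% in the light pool, and 12.8% and 10.7% in the interaction. These shares belong to the main scaling only. Its 4306 genes called lower in the polysome pool lay above the 1663 to 4172 of the alternatives. List counts given for other scalings have no matching share of all genes here. Among other bZIP factors, of the AP-1, CREB/ATF and related families, 19 of 23 were tested. In the polysome pool 7 rose and 2 fell, with a median of 0.56 against -0.26 over all genes. *ATF3*, a stress-induced bZIP repressor, rose by 2.87 ± 0.41 (edgeR adjusted p = 2.41e-05), *MAFF*, a small MAF protein, by 1.72 (4.32e-05), and *ATF6*, a sensor of endoplasmic reticulum stress, by 1.63 (0.000241). In the light pool 4 rose and 4 fell, and 8 rose and 2 fell with library totals only. The interaction was called for 2, *ATF4*, the main effector of the integrated stress response (1.74, edgeR adjusted p = 0.00417), and *NFE2L1*, which drives proteasome genes (1.67, 0.000987), both higher in the polysome pool. Over 4 scalings of the polysome pool the number that rose was 9 or 10, and 2 fell in each; the median interaction was 0.17, and -0.11 with library totals only.

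Of 36 other immediate early genes 26 were tested, and in the polysome pool 13 rose and 1 fell, with a median of 0.84. The number that rose was 14 in each of the other 4 scalings. *DUSP1*, a phosphatase that switches off MAP kinases, rose by 3.05 (edgeR adjusted p = 1.3e-06), *GADD45B*, a stress sensor that acts on p38 and JNK signalling, by 3.51 (2.1e-06), and *NFKBIA*, the inhibitor of NF-kappaB, by 2.54 (3.47e-06). *BTG2*, an antiproliferative gene named here after its value was seen as the only one of the list to fall, changed by -2.24 (edgeR adjusted p = 6.58e-06). In the light pool 7 of the 26 rose and 3 fell. The interaction was called higher in the polysome pool for 6 and lower for none by edgeR or DESeq2, where 1 had an unadjusted p under 0.05 in that direction, with *PLK2* at 1.82 (edgeR adjusted p = 0.00393), *CCN2* at 1.41 (0.0107) and *MCL1*, a short-lived antiapoptotic protein, at 1.49 (0.0141). Over the other scalings 3 to 8 were called higher and 0 or 1 lower.

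Among other KLF genes 9 of 12 were tested, and *KLF11* (1.45, edgeR adjusted p = 0.00163) and *KLF7* (1.78, 0.00461) rose in the polysome pool, while *KLF16* fell (-0.92, 0.0201), a call lost in 13 of 23 alternatives. None of the 9 had an interaction call by edgeR or DESeq2, and none had an unadjusted p under 0.05. Of 6 serum response factor and partner genes, 2 rose in the polysome pool and 3 fell. Those that fell were the ERK-regulated ternary complex factors *ELK3* (-1.87, edgeR adjusted p = 0.000415), *ELK1* (-1.37, 0.000657) and *ELK4* (-1.24, 0.000736). Of 16 tested kinases of the JNK, p38 and ERK cascades, 5 rose and 6 fell, against 20.9% and 28.8% of all genes, and over the other scalings 5 to 7 rose and 4 to 6 fell. *MAP3K1*, which acts upstream of JNK, rose by 1.30 (edgeR adjusted p = 0.000297), while *MAP3K11* changed by -1.64 (2.47e-05) and *MAP2K3*, a p38 kinase, by -1.27 (0.000529). The interaction was called for 2 in each direction (2 higher and 1 to 4 lower over the other scalings), among them *MAP2K7*, a JNK kinase, at 1.64 (edgeR adjusted p = 0.00435), *MAP3K4* at 1.39 (0.00853) and *MAP2K3* at -1.56 (0.00517).

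Of 12 genes of the MAX network, in which MAX pairs with MYC or with its antagonists, 11 were tested. In the polysome pool 1 rose and 5 fell, with a median of -0.53 against -0.26 over all genes. *MAX* itself fell (-1.59, edgeR adjusted p = 1.93e-05), as did *MXD4*, a MYC antagonist (-1.58, 8.78e-06), and *MLXIP*, a glucose-sensing factor of the network (-1.60, 1.3e-05). The interaction was called lower for 3 of the 11, *MAX* (-1.31, edgeR adjusted p = 0.00815) and *MXD4* (-1.07, 0.0132) among them, and higher for *MLXIPL* (2.10, 0.00748). Over the other scalings 3 to 5 of the 11 fell in the polysome pool and 2 to 5 had a lower interaction. Thus *MYC* and *MAX* counts on polysomes moved in opposite directions. Among 12 genes for proteins that set MYC stability or activity, 6 rose and 3 fell in the polysome pool, against 20.9% and 28.8% of all genes, and the other scalings gave 1 or 2 that fell. The kinases *PIM1* (2.79, edgeR adjusted p = 2.74e-06) and *PIM3* (2.06, 8.35e-05) rose. The interaction was called for *SKP2*, a ubiquitin ligase subunit (-1.52, edgeR adjusted p = 0.0018), and *HUWE1*, a ubiquitin ligase (1.74, 0.00567), among others.

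A further list held 12 genes of mRNA-binding proteins, all tested. Among them are binders of AU-rich elements, which many of these short-lived mRNAs carry. In the polysome pool 6 of the 12 rose and none fell by the edgeR test, where none had an unadjusted p under 0.05 in that direction, or by DESeq2. *IGF2BP1*, an mRNA-stabilising protein, changed by 0.99 (edgeR adjusted p = 0.00203), *KHSRP*, a decay factor, by 0.81 (0.00413) and *HNRNPD* by 1.10 (0.00513). In the light pool 1 rose and 3 fell, and the interaction was called higher for 4, among them *YBX1* (2.41, edgeR adjusted p = 0.00186), *KHSRP* (2.30, 7.53e-05) and *ZFP36L2* (1.78, 0.00162), and lower for 1. With library totals only, 4 rose and 2 fell in the light pool, and the interaction was higher for 4 and lower for 2.

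Genes known as targets were read as lists too, without any measure of binding. Of 20 MYC targets, all tested, 9 rose and 3 fell in the polysome pool, with a median of 0.67, and in the light pool 1 rose and 4 fell. *NCL*, a nucleolar protein of ribosome production, rose in the polysome pool by 2.30 (edgeR adjusted p = 7.53e-06), *MCM7*, a subunit of the replicative helicase, by 1.99 (1.25e-06), and *TFRC*, the transferrin receptor, by 1.93 (2.05e-05). The interaction was called higher for 9 of the 20 and lower for 1, with *NOP56*, a ribosomal RNA processing factor, at 3.79 (edgeR adjusted p = 2.99e-05), *TFRC* at 2.40 (0.00026) and *MCM7* at 1.92 (0.000189). Over the other scalings the light pool gave 3 to 8 that rose and 2 to 4 that fell, and the interaction 7 to 10 higher and 0 to 3 lower. Of 20 AP-1 targets 14 were tested, and 3 rose and 2 fell in the polysome pool, against 20.9% and 28.8% of all genes, so the share that rose was near the background. The other scalings gave 4 or 5 that rose. They included *DUSP1* (above), *TIMP1*, a metalloproteinase inhibitor (-1.01, edgeR adjusted p = 0.00604), and *SPP1*, osteopontin (1.22, 0.00921). *TIMP1* was the only one with an interaction call (-1.80, edgeR adjusted p = 0.00375). Of 12 tested genes linked to EGR1, KLF6 and KLF10, 6 rose and 2 fell in the polysome pool. *SMAD7*, an inhibitor of TGF-beta signalling, rose by 2.32 (edgeR adjusted p = 2.19e-06), *NAB2*, a corepressor of EGR1, by 2.14 (0.000107), and *SP1*, which binds GC-rich elements as KLF proteins do, by 1.47 (0.000144). These 3 also had interaction calls of 1.67, 2.37 and 1.21 (edgeR adjusted p = 0.00331, 0.00436 and 0.029). In all 5 of the 12 had an interaction call, and 2 to 6 over the other scalings.

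Across the 12 libraries, the genes whose log2 CPM followed each factor most closely were listed as a description. The values share the same libraries, depths and groups. *JUN* ran closest to *NUP93* (r = 0.978), *CAPN1* (0.976) and *ENO1* (0.973), and *JUNB* to *RRM1* (0.955), *NFKBIA* (0.955) and *MTMR6* (0.951). *MYC* ran closest to *SHMT2* (0.965), *DDIT3* (0.953) and *RABGAP1* (0.933), and *KLF10* to *ENO2* (0.964), *PSPC1* (0.958) and *ELP2* (0.956). The closest gene was *LSP1* for *FOSL1* (0.935), *AC004805.1* for *FOSL2* (0.925), *CAMK2N2* for *EGR1* (0.911), *TENT5B* for *KLF6* (0.872) and *CDK8* for *JUND* (0.843).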

How the data were processed

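RNA from 2 gradient pools of 6 HepG2 cultures was measured in 12 libraries. The authors deposited whole-number counts per gene, not normalized. The submitters' processing notes name the build GRCh38.p12. Aligner, counting tool and strand setting: not given in the sources used here, so reads of overlapping and antisense genes cannot be told apart. The 10 genes and the lists were chosen with earlier results of these data known. From each list the 3 genes with the smallest adjusted p in the polysome comparison and up to 3 with an interaction call were named. Of these, 1 gene is not reported here.

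Counts were tested with edgeR 4.0.16 (R 4.3.3, limma 3.58.1): filterByExpr with a minimum count of 10 on the 4 groups, TMM, a quasi-likelihood fit of all 12 libraries, and Benjamini-Hochberg adjustment over 14955 genes. The common biological coefficient of variation was 0.245, and each SE was obtained from the log2 fold change and the F statistic. The reference that TMM chose was sorafenib light library 2, the shallowest, and TMM factors ran from 0.637 to 1.41. The median over all genes in the polysome comparison was -0.26, and -0.03 with the deepest library as reference. In the light comparison it was -0.12, and 0.31 with library totals. Alternatives were other scalings, filters with no minimum and with a minimum count of 50, DESeq2 1.42.0, replicate blocks, only the compared libraries, thinning, and leaving out libraries. The scripts were tested on simulated counts. Figures used matplotlib 3.10.9.

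Per the labels, both pools of a number and treatment come from 1 culture, so the culture was the replicate block between pools. The deviations of such libraries from group means correlated only weakly, at 0.14, -0.07 and 0.33 in vehicle and 0.05, 0.04 and 0.04 in sorafenib cultures. Between treatments the number was the block, where the correlations were -0.20 to 0.02. The labels call the experiments triplicate; if replicates were not grown separately, the p-values cover only technical spread between libraries. Replicate libraries differed by more than counting noise, with a chi-square over its degrees of freedom of 8.66 to 46.1. The label of sorafenib polysome library 3 carries the index of vehicle light library 1, and whether this marks another run was not tested. Total counts per library ran from 511065 to 13336689, and the precision depends on this replicate spread as well as on the totals.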

Additional observations from a re-analysis of the deposited data

Results flagged for a closer look

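The effect of sorafenib differed between the gradient pools for 3 of the 9 tested factors, by a test of the difference itself. By the same test 12.8% of all tested genes were called higher in the polysome pool and 10.7% lower. The polysome effect exceeded the light effect by 2.13 on the log2 scale for *JUN* (edgeR adjusted p = 0.00567), by 1.66 for *KLF10* (adjusted p = 0.00508) and by 1.46 for *MYC* (adjusted p = 0.0279). The range of the adjusted p over the alternatives was 2.07e-06 to 0.0411 for *JUN*, 0.000116 to 0.0254 for *KLF10* and 0.000604 to 0.183 for *MYC*. The ratio of polysome to light CPM was higher in 3 of 3 sorafenib cultures than in any vehicle culture for each of these genes. That ratio rests on the same libraries as the test and is no independent support. The share of all genes that separate in this way is not given here.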

How the results depend on the processing

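The polysome rises of *JUN* (3.21 to 3.83), *JUNB* (2.56 to 3.24), *MYC* (1.37 to 2.15) and *KLF10* (1.50 to 2.11) were called in 23 of 23 alternatives, and that of *FOSL2* (0.77 to 1.56) in 22 of 22. The light rise of *JUNB* (1.84 to 2.74) was called in 23 of 23, and the interactions of *JUN* (1.72 to 2.64) and *KLF10* (1.38 to 2.41) in 22 of 22. The calls of *FOSL1* in the polysome pool, *JUN* in the light pool, the *MYC* interaction and the pool differences did not hold in all, as given with each result; the cause was not tested. The counts that follow are of the 9 tested members. With TMM within each fraction, 0 fell in the polysome pool and 0 were lower on polysomes in vehicle cells. In sorafenib cells 6 were higher there, while over all alternatives 616 to 7041 of all genes were. The share of all genes under this single setting is not given here. With library totals these pool counts were 0 lower and 2 higher in vehicle cells and 5 higher in sorafenib cells. Without the low-count filter, 0 fell in the polysome pool, 1 fell in the light pool (*FOSL1*) and 5 were higher on polysomes in sorafenib cells. That last number was 0 with the stricter filter, with thinning and without both shallow sorafenib light libraries. Thinning left *FOSL1*, *FOSL2* and *EGR1* untested, so the *FOSL1* fall could not be checked there. Among the members still tested after thinning, 0 fell in the polysome pool and 1 rose in the light pool. Without both shallow libraries 1 fell in the light pool (*FOSL1*). The DESeq2 Wald test called 1 gene lower on polysomes in sorafenib cells. With the replicate block 2 were higher and 1 lower there, and besides *KLF10* and *EGR1* the pairing changed no member's call. Leaving out each library in turn gave 0 to 2 that fell in the polysome pool, 1 to 3 that rose in the light pool, 1 to 3 lower on polysomes in vehicle cells, and 0 to 3 higher and 0 to 1 lower in sorafenib cells.

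Reversals concerned values that had not passed the test in the main fit. A reversed value was itself called for *JUND* between the pools of vehicle cells with library totals, as given below. In the polysome pool *JUND* was 0.12 with the deepest library as reference and with TMM within each fraction, 0.04 with library totals, 0.30 without the filter, 0.11 with only the compared libraries, 0.16 without both shallow libraries, and -0.34 to 0.17 over single libraries left out. In the light pool *JUND* was 0.29 with library totals, 0.20 without both shallow libraries and -0.28 to 0.26 over single libraries. *KLF10* was there -0.05 without the filter, -0.04 with the replicate block, -0.46 with thinning and -0.09 to 0.32 over single libraries, *EGR1* -1.50 to 0.16, *MYC* -0.44 to 0.45 and *KLF6* -0.01 to 0.45. In the interaction *JUND* was -0.25 with library totals, -0.01 with the stricter filter, -0.04 without both shallow libraries and -0.13 to 0.45 over single libraries. *FOSL1* was 0.12 with the deepest reference, 0.13 with TMM within each fraction, 0.50 without the filter, 0.07 with the replicate block, 1.48 without both shallow libraries and -0.51 to 0.62 over single libraries. *EGR1* was 0.46 without both shallow libraries and -1.41 to 0.45 over single libraries.

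For pools of vehicle cells, the values with TMM within each fraction and with library totals were 0.41 and 0.67 for *JUNB*, 0.52 and 0.77 for *JUND*, 0.44 and 0.70 for *FOSL1* and 0.37 and 0.63 for *FOSL2*. Over single libraries they were -0.61 to 0.44, -0.26 to 0.27, -0.57 to 0.11 and -0.56 to 0.12. The *JUND* value with library totals was called higher in the polysome pool (edgeR adjusted p = 0.0239). *KLF6* was -0.12 with the deepest reference, -0.03 with DESeq2 size factors, -0.03 with the DESeq2 Wald test, -0.09 with the stricter filter, -0.30 with thinning and -0.14 to 0.30 over single libraries. With TMM within each fraction *KLF6* was 0.66 and not called. With library totals it was called higher in the polysome pool at 0.9 (edgeR adjusted p = 0.00514). For pools of sorafenib cells, *JUND* was 0.71 with TMM within each fraction, 0.52 with library totals, 0.55 without the filter and -0.24 to 0.36 over single libraries. *FOSL1* was 0.57, 0.38 and 0.42 in those settings, 1.32 without both shallow libraries and -0.67 to 0.45 over single libraries. *FOSL2* was -0.02 with the stricter filter, and *MYC* was 0 without both shallow libraries.

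The number of all genes called higher ranged from 1693 to 4365 in the polysome pool (3130 as reported), from 846 to 3650 in the light pool (1752) and from 803 to 2836 in the interaction (1921). The number called lower ranged from 1663 to 4172 (4306), from 997 to 2877 (2648) and from 663 to 2390 (1607). The reported 4306 in the polysome pool thus lay above every alternative. Between pools it was 1010 to 7314 higher (2742) and 876 to 3193 lower (2659) in vehicle cells, and 616 to 7041 higher (2002) and 740 to 2491 lower (1855) in sorafenib cells. Of the genes the naming rule took from lists, 26 of 32 kept their polysome call and 12 of 24 their interaction call in every alternative run, and none reversed. The polysome exceptions included *KLF16*, *ELK4*, *MAP2K3*, *TIMP1* and *SPP1*. The interaction exceptions included *MCL1*, *MAP2K7*, *MAP2K3*, *MLXIPL*, *MAX*, *MXD4*, *SKP2*, *HUWE1*, *TIMP1*, *SMAD7* and *SP1*, with *MXD4* lost in 9 and *SP1* in 8 of 22. Depth limits *EGR1*, *FOS* and all values of sorafenib light library 2, where the 10 genes had 1 to 63 counts.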
